A study of Danio rerio with 6 samples.

Results

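RNA of the adult zebrafish olfactory organ was compared between 3 libraries, called the high set, and the other 3 libraries of the series, called the low set. The high set holds control 1, PEA 1 and PEA 2, and the low set holds control 2, control 3 and PEA 3, so each set mixes exposed and unexposed fish. The libraries were selected on their measured levels of 4 genes, namely fkbp5 and klf9, which are targets of the glucocorticoid receptor, and btg2 and fosb, which belong to the immediate early genes. Every difference between the sets is therefore a description of these 6 libraries, without a test, and no p-value is given for it.

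The fish were an AB derived wild type line. The PEA fish received phenyl ethyl alcohol (PEA), a rose-scented odorant, each day over 3 weeks of development, and the control fish received distilled water. Olfactory epithelium was dissected at 6 months of age, with 10 fish per experimental group according to the labels. The labels do not say how many fish went into a library. The titles number the libraries by group, so a control and a PEA library share each group number. What the libraries of a group have in common is not stated. Defining genes of the tissue were well covered in all 6 libraries. Levels are in CPM, that is, counts of a gene relative to the normalised size of its library. The cyclic nucleotide channel subunit cnga4 of olfactory neurons lay between 449 and 497 CPM. The olfactory marker protein gene ompb lay between 321 and 385 CPM, and the channel gene trpc2b of microvillous neurons between 187.4 and 252 CPM. Levels of trpc2b and of gnal, a further marker, were lower in the high set without overlap. gnal was at 103 to 121 CPM in the high set and 133 to 141 CPM in the low set. For cnga4, ompb and the markers s100z and epcam the sets overlapped.

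Cortisol, the glucocorticoid of fish, enters cells and binds a receptor that is held ready by heat shock proteins and then switches genes on or off in the nucleus. One of the genes it switches on, fkbp5, encodes a co-chaperone that lowers the affinity of the receptor, so that the response limits itself. Immediate early genes, such as fosb and npas4a, are transcribed within minutes of a stimulus without new protein synthesis, in neurons after activity and in many other cells after growth factors or injury.

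Between 43590575 and 49085973 counts were assigned to genes in a library. The high set held fewer, with 45153814, 43590575 and 45708421 counts in control 1, PEA 1 and PEA 2 against 49085973, 48299929 and 46153505 in control 2, control 3 and PEA 3. Genes with at least 1 count were also fewer in the high set, at 24634 to 24963 against 25057 to 25086. Mitochondrial genes took 6.23%, 7.48% and 9.68% of the counts in the high set and 6.81% to 7.25% in the low set, and PEA 2 stood apart from the other 5 libraries in this share. The library number goes with the sets in part, since both libraries numbered 1 are in the high set and both numbered 3 in the low set. What part depth, the mitochondrial share or the library number has in the differences below was not tested, and number and set cannot be told apart for the numbers 1 and 3.

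The 4 genes that chose the libraries did not order them alike. Levels of fkbp5 were 1414 CPM in control 1, 1621 CPM in PEA 1 and 311 CPM in PEA 2, against 99.3 CPM in control 2, 101 CPM in control 3 and 322 CPM in PEA 3. PEA 3 of the low set thus lay above PEA 2 of the high set, and for fkbp5 the sets overlapped. Only control 1 and PEA 1 stood far above the rest, while PEA 2 and PEA 3 were nearly level with each other and above the other controls. For this reason the sets are named here by their level and not as a state of the tissue.

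The other 3 genes kept the sets apart. klf9, a Krüppel-like transcription factor, reached 158, 177 and 77.6 CPM in control 1, PEA 1 and PEA 2 against 21.6, 22.1 and 36.8 CPM in control 2, control 3 and PEA 3. btg2, an antiproliferative gene, stood at 274, 247 and 347 CPM against 131, 41.5 and 146 CPM in the same order. fosb, a subunit of the AP-1 transcription factor, stood at 54.8, 71.2 and 74.6 CPM against 28.7, 18.4 and 21.8 CPM. PEA 2 was thus the lowest library of the high set for klf9 and the highest for btg2 and fosb. The log2 difference, the mean log2 CPM of the high set minus that of the low set, came to 2.60 for fkbp5, 2.31 for klf9, 1.63 for btg2 and 1.55 for fosb.

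**Figure D1:**
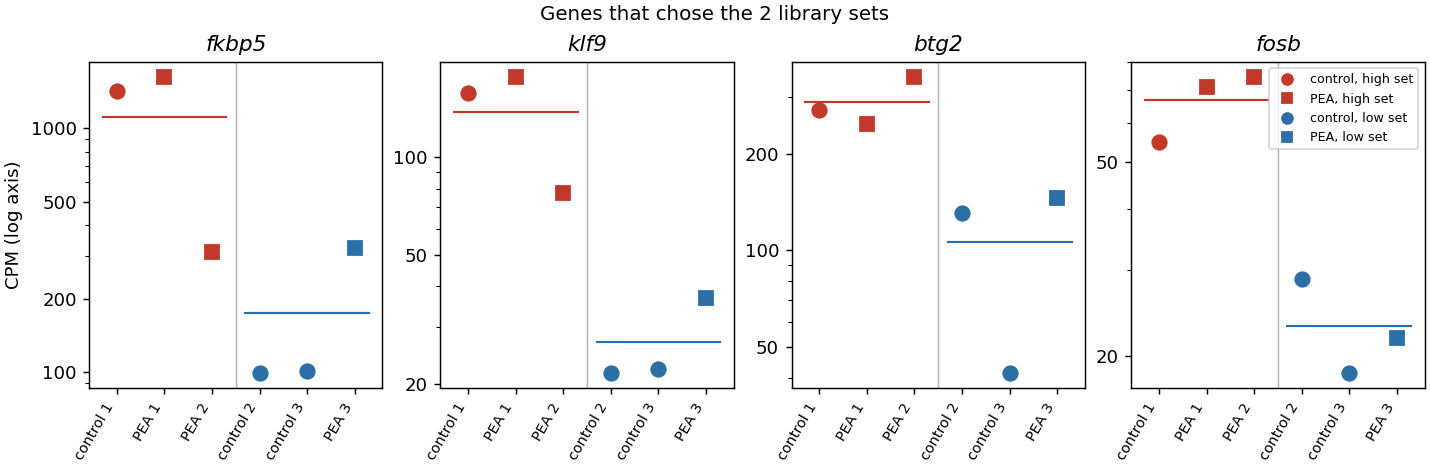
CPM on a log axis of fkbp5, klf9, btg2 and fosb in each library, with circles for control, squares for PEA, red for the high set and blue for the low set; the lines are the means of 3 libraries. PEA 2 and PEA 3 sit level for fkbp5 at 311 and 322 CPM, while the sets do not overlap for the other 3 genes.

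A principal component analysis of all genes tested separated the sets along the first component, which held 33.3% of the variance. Scores on it were 37.5, 14.7 and 16.3 in control 1, PEA 1 and PEA 2 and -16.7, -22.3 and -29.5 in control 2, control 3 and PEA 3. The second component, with 20.4% of the variance, set PEA 2 apart at 39.1 from the other libraries at -18.9 to 4.93.

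Of 20628 genes tested, 130 were apart and higher in the high set (0.63%), which means that every library of the high set lay above every library of the low set and that the log2 difference was at least 1. In the other direction 67 genes were apart (0.325%). Without a minimum difference the sets did not overlap for 2492 genes that were higher (12.08%) and for 2676 that were lower in the high set (12.97%). With single libraries left out the higher count reached 236 without PEA 2, and the lower count 114 without control 1, 127 without control 2, 156 without control 3, 229 without PEA 1 and 161 without PEA 2, since fewer libraries then have to be apart. These shares rest on libraries selected for such levels and nothing is read from them. By the labelled exposure, which played no part in the selection, the 3 PEA libraries lay above the 3 controls without overlap for 529 genes (2.56%) and below them for 607 genes (2.94%).

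Higher and lower genes differed in abundance. Of the 130 higher genes, 112 had a mean of at least 1 CPM and 16 had no name in the table, whereas only 20 of the 67 lower genes reached 1 CPM and 25 had no name. A log2 difference of at least 2 was found for 18 of the higher genes. The higher genes nearest the limit on the inside were slmo2 and snrkb at log2 differences of 1.001 and 1.003, and zgc:136870 and mfsd2b fell just outside at 0.997 and 0.995. On the lower side zgc:162160 was just inside at -1.0001 and the unnamed ENSDARG00000063564 just outside at -0.999.

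Among glucocorticoid targets, 10 of the 32 members tested were apart and higher, beside 0.63% of all genes, and none was apart and lower. The median log2 difference of the list was 0.51, against -0.02 over all genes tested. fkbp5 and klf9 are members of this list and chose the libraries, and without them 9 of 30 were apart and the median was 0.42. The other members are the kind of gene that the selection followed, so these values are not free of it. ddit4, an inhibitor of the growth kinase mTOR, was at 523, 372 and 372 CPM in control 1, PEA 1 and PEA 2 and at 86.3, 69.5 and 108 CPM in control 2, control 3 and PEA 3. tsc22d3, known in mammals as the glucocorticoid-induced leucine zipper, was at 829, 566 and 796 CPM against 249.9, 149 and 278 CPM. The high libraries of both genes lay close together and well clear of the low set. sgk1, a kinase that keeps ion channels at the membrane, followed the same order with 102, 85.1 and 95.6 CPM against 45.7, 36.4 and 47.1 CPM.

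Several of these targets act as brakes on signalling. nfkbiab, an inhibitor of NF-kB, stood at 1117, 826 and 1114 CPM in control 1, PEA 1 and PEA 2 against 229, 247 and 359 CPM in control 2, control 3 and PEA 3, a log2 difference of 1.89. Its paralogue nfkbiaa did not follow the sets, with 80.0, 67.8 and 127 CPM against 81.5, 82.4 and 111 CPM. ERRFI1 (1 of 2), an inhibitor of the epidermal growth factor receptor, and socs1a, a suppressor of cytokine signalling, had log2 differences of 1.97 and 1.47. cebpd, a transcription factor of the acute phase response, was at 742, 409.7 and 756 CPM against 211, 95.8 and 272 CPM, and the growth arrest gene gadd45ga had a log2 difference of 1.60.

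A second group of targets was high in control 1 and PEA 1 but not in PEA 2. hsd11b2, which inactivates cortisol, reached 370.1 and 459.7 CPM in control 1 and PEA 1 and only 154 CPM in PEA 2, next to 165 CPM in PEA 3 and to 78.7 and 58.5 CPM in control 2 and control 3. lpin1, a phosphatidate phosphatase of fat synthesis, was at 89.8 and 167 CPM in control 1 and PEA 1 and at 31.4 to 40.8 CPM in all other libraries. For hsd11b2 and lpin1, as for fkbp5, the sets overlapped. pdk2b, a kinase that shuts off pyruvate dehydrogenase, was apart although PEA 2 was near the low set, with 9.99, 15.3 and 2.91 CPM against 1.45, 1.55 and 1.57 CPM.

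zbtb16a, whose mammalian counterpart is itself a glucocorticoid target, ran the other way. It was at 1.34 and 1.59 CPM in control 1 and PEA 1, at 4.51 CPM in PEA 3 and at 10.7, 12.8 and 11.1 CPM in PEA 2, control 2 and control 3. Its paralogue zbtb16b showed the same order of extremes, with 3.06 and 3.86 CPM in control 1 and PEA 1 and 12.9 CPM in control 2. In mammals the gene encodes a transcription factor of progenitor cells.

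The receptor itself was no higher where its targets were. nr3c1, the glucocorticoid receptor gene, stood at 63.1, 78.6 and 68.4 CPM in the high set and at 78.7, 76.1 and 89.0 CPM in control 2, control 3 and PEA 3, with overlap. Of the 16 genes of the receptor and its chaperones, none was apart. The sets did not overlap for 6 (37.5%) on the higher and 4 (25.0%) on the lower side, beside 12.08% and 12.97% of all genes. The higher ones included ptges3a, the p23 co-chaperone, with 256, 243 and 214 CPM against 159, 166 and 130.3 CPM, and hsp90aa1.2, an inducible heat shock protein that holds the receptor, with a log2 difference of 0.57. Its constitutive relative hsp90ab1 lay at 3755 to 4215 CPM in all libraries. The lower ones included the coregulators ncoa1, ncoa3 and ncor1, at log2 differences of -0.74, -0.24 and -0.29.

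Of 60 immediate early genes tested, 15 were apart and higher, beside 0.63% of all genes, and none was apart and lower. The sets did not overlap for 26 on the higher and 7 on the lower side, beside 12.08% and 12.97% of all genes, and the median log2 difference was 0.31. btg2 and fosb are members of this list and chose the libraries. Without them 13 of 58 were apart and higher, 24 did not overlap on the higher side, and the median was 0.27. Leaving them out does not free these values of the selection, which followed genes of this kind. npas4a, a transcription factor that neurons switch on with activity, was at 20.0, 13.2 and 25.1 CPM in control 1, PEA 1 and PEA 2 and at 2.33, 0.844 and 2.73 CPM in control 2, control 3 and PEA 3, a log2 difference of 3.39. It was the only gene of the 130 with a difference of at least 3. nr4a1, an orphan nuclear receptor, stood at 139, 99.9 and 228 CPM against 55.1, 10.0 and 54.1 CPM.

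PEA 2 was the highest library for npas4a and nr4a1, and control 3 the lowest. The same libraries marked the extremes of SIK1, a kinase that restrains CREB-driven transcription, which was at 529, 409.7 and 715 CPM in the high set and at 224, 84.6 and 243 CPM in the low set. fosl2 and jund, further AP-1 subunits, had log2 differences of 1.50 and 1.43. cyr61, a secreted matrix protein, and the nuclear factors csrnp1b and EGR4 had log2 differences of 1.92, 1.88 and 1.79.

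klf2a and socs3a combined wide gaps with high abundance. klf2a, a Krüppel-like factor that responds to blood flow in vessels, was at 342, 241 and 247 CPM in control 1, PEA 1 and PEA 2 and at 52.4, 44.0 and 62.2 CPM in control 2, control 3 and PEA 3. Its paralogue klf2b was not higher, with a log2 difference of -0.54 and overlap. socs3a, a feedback inhibitor of cytokine receptors, was at 659.7, 413 and 541 CPM against 139, 67.9 and 158 CPM.

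Not every classical immediate early gene followed. egr1 stood at 127, 92.9 and 149.7 CPM in the high set and at 170.2, 92.4 and 157 CPM in the low set, a log2 difference of -0.16. fosab, the zebrafish fos gene, was at 96.7, 53.6 and 165 CPM against 93.2, 9.16 and 71.9 CPM, so that the sets overlapped and control 3 alone was low. egr2a and egr3 had log2 differences of 0.03 and -0.12. klf11b and zfp36l1a, an RNA-decay factor, were lower in the high set without overlap, at log2 differences of -0.77 and -0.67.

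**Figure D2:**
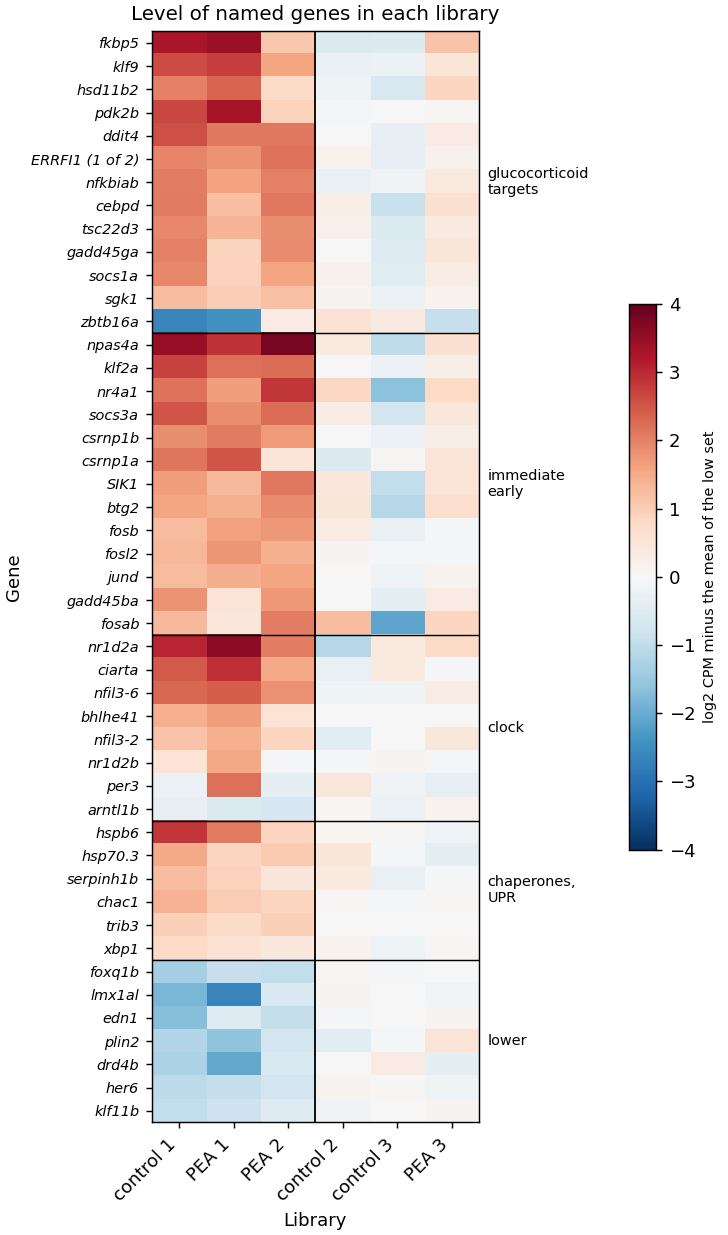
Each cell is the log2 CPM of a gene in a library minus the mean of the 3 low libraries, on a colour scale from -4 (blue) to 4 (red), with the high set left of the black line. The genes drawn were picked from the lists, mostly for large differences. Most of the drawn targets and immediate early genes are red in all 3 high libraries. fkbp5, hsd11b2 and csrnp1a are strongly red only in control 1 and PEA 1, and zbtb16a is blue there. Over the whole lists, 13 of 32 targets and 26 of 60 immediate early genes were higher without overlap, beside 12.08% of all genes.

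Of 46 circadian clock genes tested, 6 were apart and higher, beside 0.63% of all genes. The sets did not overlap for 14 on the higher side and 7 on the lower side, beside 12.08% and 12.97% of all genes. Some members are also immediate early genes, as nfil3-5, or glucocorticoid targets, as per1b, so the counts of these lists share genes. nr1d2a, a nuclear receptor that represses clock genes, was at 189, 275 and 93.9 CPM in control 1, PEA 1 and PEA 2 against 10.4, 29.7 and 38.5 CPM in control 2, control 3 and PEA 3. ciarta, a repressor of the CLOCK and BMAL complex, was at 21.0, 28.8 and 10.8 CPM against 3.05, 4.92 and 3.58 CPM.

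Of the other clock genes that were apart, nfil3-6, a basic leucine zipper repressor, was at 165, 182 and 121 CPM in the high set and at 30.1, 30.4 and 41.6 CPM in the low set, and its relatives nfil3-2 and nfil3-5 had log2 differences of 1.15 and 1.02. bhlhe41 had a log2 difference of 1.21. PEA 2 was the lowest library of the high set for all 6 genes. nr1d4a, of the same family of nuclear receptors as nr1d2a, was lower in the high set without overlap, at a log2 difference of -0.41.

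Of the core of the clock, per2 was at 31.9 to 38.1 CPM in the high set and at 33.4 to 37.4 CPM in the low set, and arntl1a, which encodes a BMAL protein, at 41.6 to 46.7 and 39.8 to 43.6 CPM. The related genes arntl1b and arntl2 were lower in the high set without overlap. arntl1b was at 7.02, 5.91 and 5.48 CPM in control 1, PEA 1 and PEA 2 against 9.40, 7.51 and 9.74 CPM in control 2, control 3 and PEA 3, a log2 difference of -0.53, and arntl2 had one of -0.35. clocka was also lower, at -0.19 without overlap. per3 reached 5.45 CPM in PEA 1 against 0.883 to 1.58 CPM in the other libraries, and per1b 17.2 CPM in PEA 1 against 5.95 to 8.30 CPM. nr1d2b was likewise at 50.7 CPM in PEA 1, at 25.3 CPM in control 1 and at 16.1 to 18.4 CPM elsewhere.

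The position of PEA 2 was measured per gene as its place between the mean of the low set, set at 0, and the mean of control 1 and PEA 1, set at 1, on the log2 scale. It was computed for genes with a span of at least 1 between these ends. Among glucocorticoid targets the place ran from 0.018 for lpin1 to 1.303 for gadd45ga, with a median of 1.03 over 13 genes. Among immediate early genes the median was 1.18 over 16 genes, and 13 of them had a place of at least 0.75. Among clock genes the median was 0.59 over 8 genes, and 1 gene, nfil3-6, reached 0.75. Over all 251 genes with such a span the median was 0.56, and 81 of them had a place of at least 0.75. The span keeps genes that are high in control 1 and PEA 1, and the 4 genes that chose the libraries are among them. Without these the medians were 1.103 over 11 glucocorticoid targets and 1.102 over 14 immediate early genes. These places are a description of libraries selected on such genes.

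PEA 3 was placed in the same way between the means of control 2 and control 3 and of control 1 and PEA 1. Its median place was 0.29 among the same glucocorticoid targets, 0.22 among the immediate early genes and 0.24 among the clock genes, with 0.43 for fkbp5 and 0.49 for hsd11b2. Over all 251 genes with a span of at least 1, the median place of PEA 3 was 0.062. PEA 3 thus lay part of the way up for several of the listed genes. For fkbp5 and hsd11b2 it was above both control 2 and control 3. For nr4a1 and btg2, control 2 was near PEA 3, at 55.1 and 131 CPM against 54.1 and 146 CPM. Control 3 was low for both, at 10.0 and 41.5 CPM. No difference between the lists was tested.

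**Figure D3:**
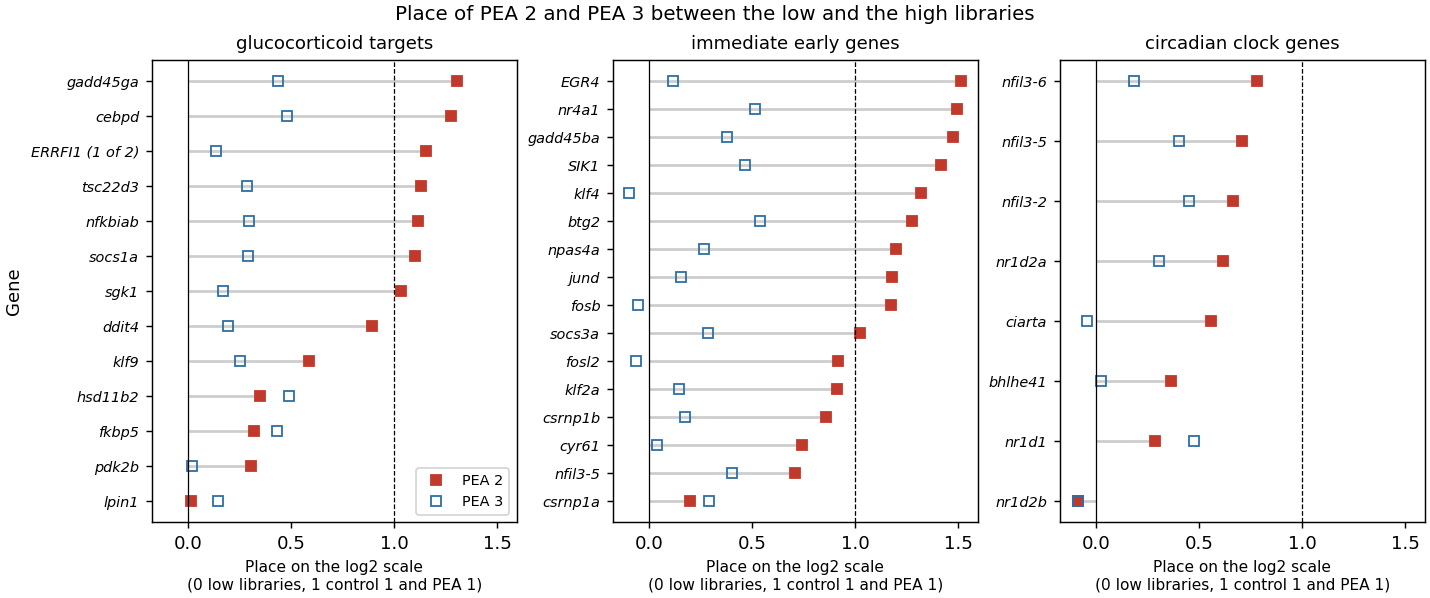
The x axis is the place on the log2 scale of PEA 2 (filled) and PEA 3 (open) for each gene with a span of at least 1. A place of 1 is the mean of control 1 and PEA 1. A place of 0 is the mean of the low set for PEA 2, and the mean of control 2 and control 3 for PEA 3. Filled and open symbols thus lie on different scales. PEA 2 lies beyond 1 for most immediate early genes and below 0.8 for all 8 clock genes, and the targets spread from 0.018 to 1.303.

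Genes of protein folding were higher by small amounts. Of 31 genes of the unfolded protein response, by which cells adapt to misfolded protein in the endoplasmic reticulum, 22 did not overlap on the higher side and 1 on the lower side, with a median log2 difference of 0.23, beside 12.08% and 12.97% of all genes. chac1, a glutathione-degrading enzyme, was apart at 569.7, 435 and 390.3 CPM in control 1, PEA 1 and PEA 2 against 223, 204 and 223 CPM in control 2, control 3 and PEA 3. trib3, a pseudokinase, was at 104, 90.3 and 104 CPM against 53.7, 53.7 and 53.1 CPM, and xbp1, a transcription factor of this response, had a log2 difference of 0.60.

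Of 43 heat shock and chaperone genes, 20 (46.5%) did not overlap on the higher side and 1 (2.33%) on the lower side, beside 12.08% and 12.97% of all genes. Some members are also in the unfolded protein response list or, as hsp90aa1.2 and stip1, in the receptor list, so these counts share genes. Among the heat shock and chaperone genes 3, hspb6, hsp70.3 and hspb8, were apart, beside 0.63% of all genes. These were weakly expressed, as with hsp70.3 at 5.84, 3.70 and 4.23 CPM in the high set against 2.80, 1.89 and 1.52 CPM, and reads of near-identical hsp70 copies may be shared among them. hspa8, the constitutive chaperone, was at 2705, 2180.0 and 2406 CPM against 2076, 1939 and 1824 CPM. Proteasome subunits, with 15 of 42 not overlapping on the higher side, and nuclear genes of oxidative phosphorylation, with 29 of 102, had medians of 0.16 and 0.17 and no member on the lower side. Both counts depended on PEA 1, and came to 35 and 84 without it, while that of oxidative phosphorylation was 58 without PEA 3. Cytosolic ribosomal protein genes shared this rise, as their higher count went from 7 to 70 of 75 without PEA 1. Their mean log2 CPM was 9.66 in PEA 1, inside the 9.61 to 9.75 of the low set. Over all genes tested the rise was smaller in share, from 2492 of 20628 to 4370 of 20922.

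Other genes with wide gaps belonged to none of these lists. They included the small GTPase genes arl5c and gem, at log2 differences of 2.096 and 1.80, the purine nucleoside phosphorylase gene pnp5a at 2.06, and the uncharacterised si:dkey-201c13.2 at 2.50, si:dkey-17e16.17 at 2.08 and ALKBH3 (2 of 2) at 2.06. A further 3 genes, dio2, igf2b and gnrh3, were chosen after their values were seen. dio2, which activates thyroid hormone, was at 209.6, 126 and 43.6 CPM in control 1, PEA 1 and PEA 2 against 43.5, 24.0 and 34.2 CPM in control 2, control 3 and PEA 3, so PEA 2 and control 2 were level. The insulin-like growth factor gene igf2b was at 388, 383 and 373 CPM against 163, 142 and 161 CPM, with little spread inside either set. gnrh3, a gonadotropin-releasing hormone gene of the terminal nerve, was at 3.78, 3.59 and 1.88 CPM against 0.547, 1.45 and 0.445 CPM.

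Among lower genes with at least 1 CPM, foxq1b, a forkhead factor, had the widest gap between the sets, at 14.7, 19.6 and 18.6 CPM in the high set against 38.1, 35.5 and 37.7 CPM in control 2, control 3 and PEA 3. lmx1al, a LIM homeobox gene, was at 0.997, 0.545 and 2.39 CPM against 3.91, 3.66 and 3.39 CPM. The vasoconstrictor gene edn1, the lipid droplet gene plin2 and the dopamine receptor gene drd4b had log2 differences of -1.06, -1.18 and -1.31.

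Differences of progenitor and neuron genes were smaller. her6, a Notch target, was at 27.4, 29.2 and 33.3 CPM in control 1, PEA 1 and PEA 2 against 61.9, 57.8 and 49.3 CPM in control 2, control 3 and PEA 3. Of 36 neurogenesis and basal progenitor genes, 8 (22.2%) did not overlap on the lower and 4 (11.1%) on the higher side, beside 12.97% and 12.08% of all genes, with a median of -0.20. The lower count was 16 without PEA 2 and 13 without PEA 3 or control 2, and the higher count 8 without PEA 1. Over all genes tested the lower count was 3822 of 20983 without PEA 2, and the higher count 4370 of 20922 without PEA 1. Of 37 genes of olfactory sensory neurons the shares were 24.3% and 13.5%, with adcy3b, an adenylyl cyclase, at -0.55 and elavl3, an RNA-binding protein of young neurons, at -0.47. In bulk tissue fewer cells of a type and less RNA per cell cannot be told apart.

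Of 110 odorant receptor (OR) genes, 11 (10.0%) did not overlap on the higher and 3 (2.73%) on the lower side, beside 12.08% and 12.97% of all genes, with a median of 0.07. The higher count was 29 without PEA 1 and 19 to 21 without PEA 2, PEA 3 or control 2, and the lower count was 13 without PEA 2, 11 without control 3 and 7 without control 1. Of 36 olfC receptor genes the counts were 3 and 9, and of 79 trace amine-associated receptor genes 4 and 3, with up to 16 on the higher side without PEA 1 and up to 15 on the lower side without PEA 2. Leaving out a library also raised the counts over all genes tested, to 4370 of 20922 higher without PEA 1 and 3822 of 20983 lower without PEA 2. taar20g was the only receptor gene apart, at 3.78, 3.02 and 4.04 CPM in the high set against 1.52, 1.81 and 0.889 CPM, and its reads may be shared with near-identical copies.

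Markers of other cell types were compared as whole lists. For macrophages and microglia, 14 of 35 genes did not overlap on the higher side and none on the lower side, beside 12.08% and 12.97% of all genes, and their summed level was 17380 to 19750 CPM in the high set and 16320 to 17980 CPM in the low set. For neutrophils the counts were 8 (26.7%) and 1 (3.33%) of 30, and the sums were 1627 to 1658 against 1387 to 1552 CPM. Without control 1 the higher count of neutrophil genes was 13, beside 3405 of 20985 over all genes tested. The neutrophil list names mpeg1, as the macrophage list does, so these lists are not wholly separate. For sustentacular, goblet and mucus genes the counts were 11 (42.3%) and 0 of 26, with 7702 to 7937 against 6689 to 7075 CPM.

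Of 4 lists of tissue from outside the epithelium, 3 overlapped between the sets in their summed level. Genes of the olfactory bulb, brain and glia summed to 774.4 to 869.9 CPM in the high set and 808.1 to 870.9 CPM in the low set. Of 27 such genes, however, 7 (25.9%) did not overlap on the lower and 1 (3.7%) on the higher side. The shares of all genes were 12.97% and 12.08%, and the median of this list was -0.13. Cartilage, bone and fibroblast genes summed to 2969 to 3559 and 3309 to 4033 CPM, and erythroid genes to 309.5 to 372.5 and 278.3 to 403.9 CPM. Skeletal muscle genes summed to 510.7 to 578.9 CPM against 463.1 to 496.3 CPM, without overlap, although their median log2 difference was -0.02. No count in any library was found for 2 of the 61 muscle genes and 6 of the 32 erythroid genes. Lymphocyte lists gave higher sums but lower medians. T and NK cell genes were at 451.1 to 461.3 CPM against 359.1 to 413.3 CPM, with a median of -0.14. Of 31 such genes, 7 (22.6%) did not overlap on the lower and 2 (6.45%) on the higher side, beside 12.97% and 12.08% of all genes. In this list ccr9a alone, a chemokine receptor gene, was at 194 to 212 against 69.4 to 129 CPM and makes the higher sum. Without ccr9a the sums of the high set no longer lie above those of the low set. Endothelial and lymphatic genes summed to 1489 to 1679 CPM against 1362 to 1433 CPM. klf2a, whose wide difference is given above, is among them and makes this separation. Without klf2a the sums of the sets overlap. The median log2 difference of this list was only 0.003. Its sets did not overlap for 6 (17.6%) of 34 genes on the higher and 7 (20.6%) on the lower side, beside 12.08% and 12.97% of all genes. The part of these cell types in the differences between the sets was not tested.

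**Figure D4:**
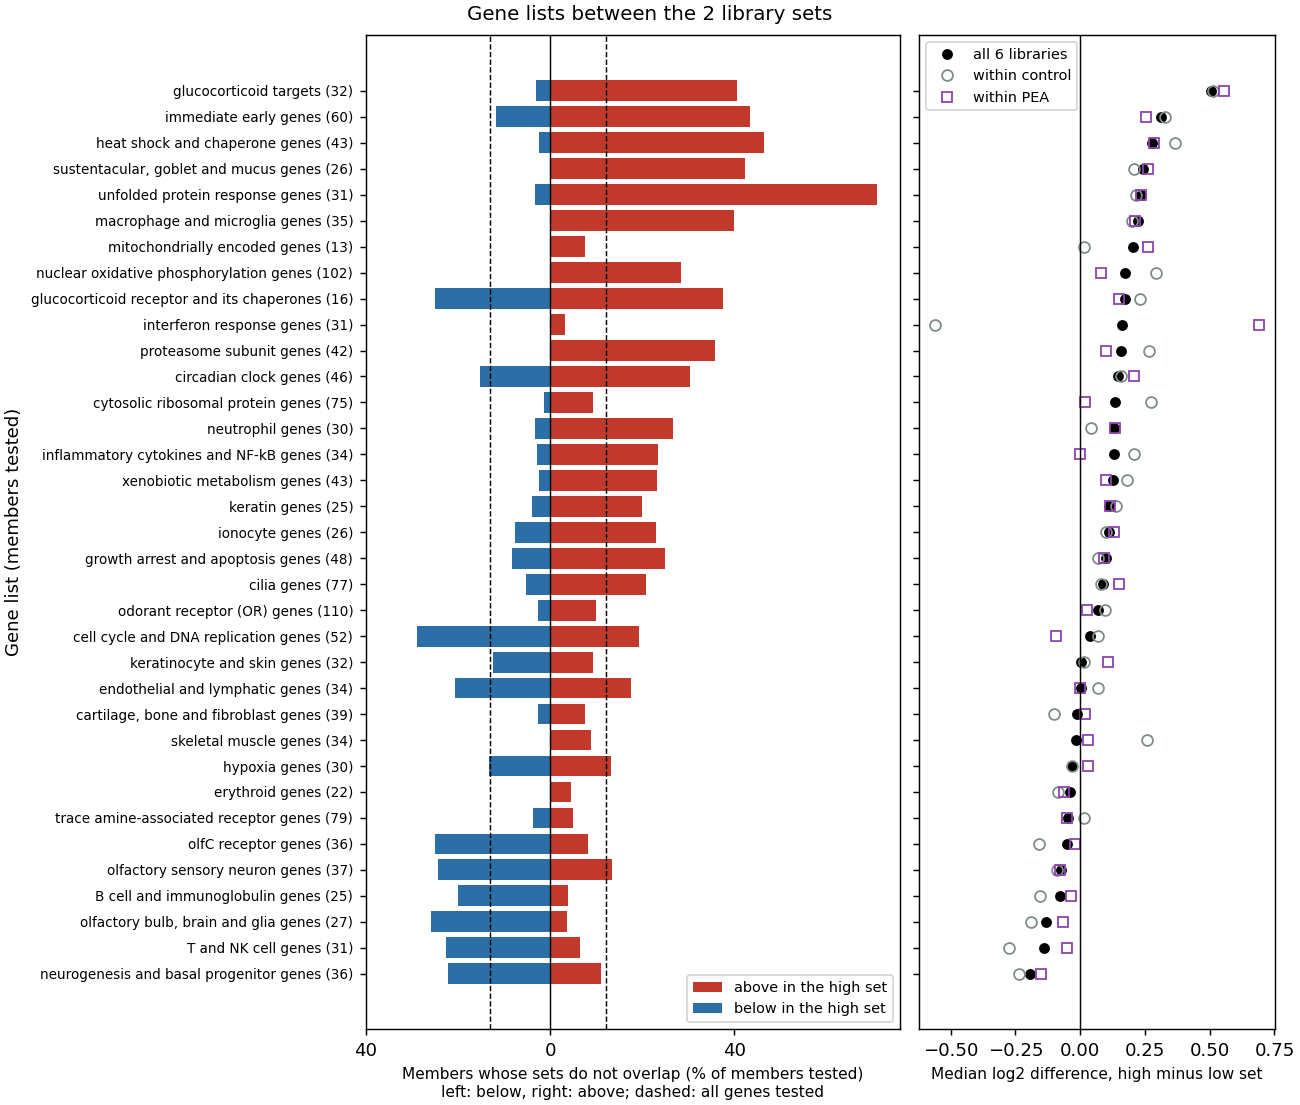
Left, the share of each list's tested members (number in brackets) whose 3 high libraries all lie above (red) or below (blue) the 3 low libraries, with dashed lines at the 12.08% and 12.97% of all genes tested. Right, the median log2 difference over all libraries and within each exposure group; genes of the unfolded protein response have the highest share, 71.0%, and interferon genes differ most between the exposure groups.

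The difference was also taken within each exposure group, where control 1 was set against control 2 and control 3, and PEA 1 and PEA 2 against PEA 3. The median log2 difference of the glucocorticoid targets was 0.51 within control and 0.55 within PEA, and that of the immediate early genes 0.33 and 0.26. Single genes were less even. npas4a differed by 3.79 within control and 2.72 within PEA, klf9 by 2.85 and 1.67, fkbp5 by 3.82 and 1.14, and zbtb16a by -3.11 and -0.12. Each within-group difference rests on a single library at one end.

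The number 2 is the only one that the sets divide, with PEA 2 in the high and control 2 in the low set. By the rule for apart, PEA 2 lies above control 2 for each of the 130 higher genes. The log2 difference of PEA 2 minus control 2 was at least 1 for 75 of them, and nothing is read from this count. This difference was 3.41 for npas4a, 2.11 for ddit4 and 0.02 for lpin1, and it cannot be told apart from the exposure.

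**Figure D5:**
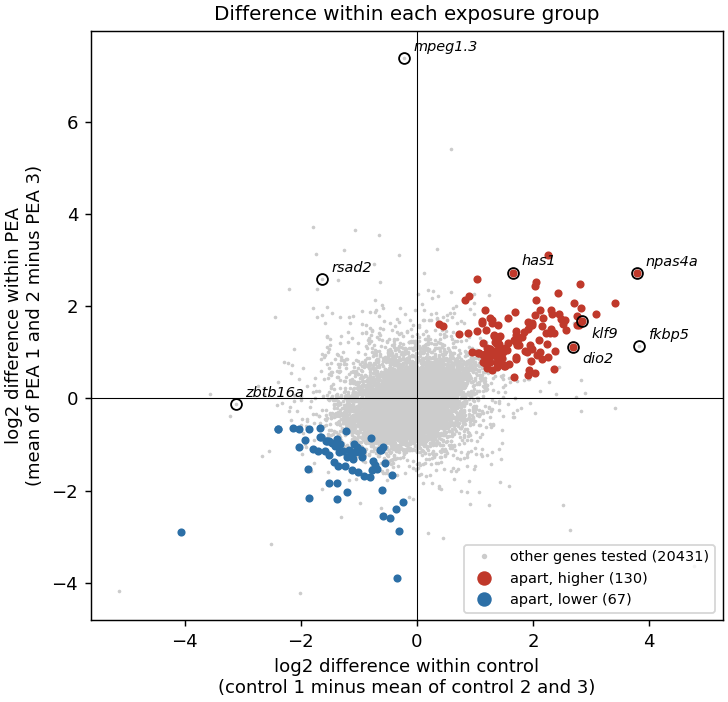
Each point is a gene, with the log2 difference within control (x axis) and within PEA (y axis); genes apart between the sets are red (130 higher) or blue (67 lower) and the other 20431 genes grey. fkbp5 lies far right at 3.82 and 1.14, while rsad2 and mpeg1.3 differ in opposite directions or mainly within PEA.

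The sets cross the labelled exposure, for which the question of the study, whether early odorant exposure altered the adult tissue, has its own comparison. edgeR's quasi-likelihood test with Benjamini-Hochberg adjustment called 0 of 20628 genes between PEA and control (0.0%), the lowest adjusted p being 0.481, and 342 genes had an unadjusted p under 0.05. By DESeq2 5 genes were called, and none of these was apart between the sets. Of the 197 genes apart, ankrd34bb, chst2b, klf4, si:dkey-32e6.6 and the unnamed ENSDARG00000012552 had an unadjusted p under 0.05, all with an adjusted p of 0.9999 by edgeR.

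For the genes of the selection, edgeR's log2 fold change of PEA over control was 0.48 (SE 1.06) for fkbp5, 0.53 (SE 0.81) for klf9, 0.73 (SE 0.57) for btg2 and 0.72 (SE 0.49) for fosb, with adjusted p = 0.9999 for each in edgeR's test. The selection took 2 PEA libraries and 1 control library as high in these genes, so the sign follows from it. Their range inside each exposure group was wider than these differences. With a single factor for exposure, the variation between the sets enters that test as spread between replicates.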

How the data were processed

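Per the labels, RNA of adult olfactory epithelium was sequenced in 3 control and 3 PEA libraries, called biological triplicates. The submitters' notes name FastQC 0.11.9 for read quality, Trim Galore 0.6.4 for trimming, Bowtie2 for alignment to the build Zv9 and HTSeq 0.11.2 for counting. The strand and multi-mapping settings of the counting are not given there or in the methods. The deposited raw counts per gene, which the authors left without normalization, were used throughout. The authors' normalized values, means and fold changes from DESeq2 1.24 in the same table were not used.

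CPM used TMM-adjusted library sizes, and log2 CPM a prior count of 2. Of 33737 genes, 20628 passed the edgeR filter for low counts, and 9040 had no name in the table. Genes are given by the table's names. A gene was called apart when the sets did not overlap and the log2 difference was at least 1. The exposure was tested with edgeR 4.0.16 in R 4.3.3 (quasi-likelihood test, Benjamini-Hochberg adjustment, exposure as the only factor), with an SE from the test's F statistic, and with DESeq2 1.42.0. A call had an adjusted p under 0.05. These p-values measure the spread between the libraries, which may be technical, since the pooling of fish is not stated. The code was tested on simulated data. Totals of 43590575 to 49085973 counts make 3 counts equal to 0.0586 to 0.0697 CPM, counting error only.

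The libraries, the 35 gene lists and the rules were chosen with earlier results of these data known. Named genes are the 4 of the selection, the 15 with the widest gap in each direction among named genes apart with at least 1 CPM, up to 6 members per list with the largest log2 difference, any member of the target, receptor, immediate early and clock lists, genes called by edgeR (0) and marker genes. Alternatives were other size factors, scaling without mitochondrial genes, other filters, prior counts and limits, each library left out, the library number as a block and DESeq2. Promoter motifs were not analysed here.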

Additional observations from a re-analysis of the deposited data

Results flagged for a closer look

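For 4 gene lists the libraries of the high set lay on one side of the low set within control and on the other side within PEA, in mean log2 CPM over the list. This difference between the exposure groups was not tested, and within control or PEA a single library stands at one end.

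Interferon response genes had a mean log2 CPM of 3.96 in control 1 against 4.14 and 4.78 in control 2 and control 3, and of 4.35 and 4.72 in PEA 1 and PEA 2 against 3.71 in PEA 3. The difference was thus -0.50 within control and 0.83 within PEA, 1.33 apart. rsad2, an antiviral enzyme, was at 6.91 CPM in control 1, 10.8 CPM in control 2 and 42.8 CPM in control 3, and at 16.0, 33.4 and 3.81 CPM in PEA 1, PEA 2 and PEA 3. Control 3 and PEA 2, of different sets and exposures, were the highest libraries. Of 31 interferon genes only socs1a (3.23%), also a member of the glucocorticoid targets, kept the sets from overlapping, on the higher side. Over all genes tested the shares were 12.08% on the higher and 12.97% on the lower side.

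Mitochondrially encoded genes differed by -0.04 within control and 0.27 within PEA, 0.32 apart, with PEA 2 highest. Keratinocyte and skin genes differed by -0.06 and 0.10, 0.16 apart, and cell cycle and DNA replication genes by 0.06 and -0.07, with a gap of -0.12.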

How the results depend on the processing

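The counts of genes apart depended on abundance and on single libraries. The 130 higher genes came to 114 to 166 with DESeq2 size factors, scaling without mitochondrial genes, a prior count of 0.5, no filter or at least 10 counts in every library, and to 18 at a log2 difference of at least 2. The 67 lower genes came to 162 without a filter, to 33 with at least 10 counts in every library, where 35 of them were not tested, and to 3 at a log2 difference of at least 2. Leaving out a library gave 147 to 236 higher genes, the most without PEA 2, of which 126 were among the 130, and 93 to 229 lower genes, the most without PEA 1, since fewer libraries have to be apart. The median of the glucocorticoid targets was 0.45 to 0.75 with a library left out, highest without PEA 2, and those of immediate early, clock, heat shock and unfolded protein response genes were 0.24 to 0.33, 0.11 to 0.20, 0.24 to 0.33 and 0.20 to 0.28. No named gene that was apart changed direction under any alternative. The rule for apart all but fixes this, since the sets of such a gene do not overlap, so nothing is read from it.

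Between PEA and control, 0 or 1 gene was called with a library left out, the 1 without control 3, and DESeq2 called 5. With the replicate block, the library number as a factor, edgeR called 0 genes, with a lowest adjusted p of 0.146. Same-numbered libraries deviated together with correlations of 0.17, -0.15 and 0.14, and the numbers were not taken as pairs in the main test. These correlations cannot settle whether the groups of the titles are pairs or batches, since each number holds only 1 control and 1 PEA library. The promoter motif description was not run.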

Other observations

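Some genes followed a single library and not the sets. mpeg1.3, a perforin-like gene of macrophages, was at 0.296 CPM in PEA 3 and at 29.8 to 61.4 CPM in the other 5 libraries, and its reads may be shared with its mpeg1 copies. rhcga, an ammonium transporter of ionocytes, was at 5.56 CPM in control 1 and at 0.411 to 0.678 CPM elsewhere, and the cartilage matrix gene matn1 at 3.59 CPM in control 1 and at 0.391 to 0.744 CPM elsewhere. taar19g, a trace amine-associated receptor gene, was at 0.0227 CPM in PEA 1, which is 1 count, and at 0.209 to 1.15 CPM in the others.

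The immunoglobulin genes ighv1-4 and igl3c3 are given because DESeq2 called them, after their values were seen. ighv1-4 was at 15.5, 8.41 and 15.3 CPM in control 1 to 3 and at 36.3, 46.4 and 21.0 CPM in PEA 1 to 3, and the light chain gene igl3c3 at 0.348, 0.235 and 0.482 CPM against 1.95, 1.58 and 0.868 CPM. DESeq2 called both between PEA and control, with adjusted p = 0.00761 and 0.0267, and edgeR neither, with adjusted p = 0.9999 for each. The 25 B cell and immunoglobulin genes tested summed to 343.0 to 365.8 CPM in the high set, with control 1 at 359.4 CPM, and to 253.2 to 286.4 CPM in the low set. A large part of each sum was xbp1, also a gene of the unfolded protein response. It was at 242, 204 and 183 CPM in control 1, PEA 1 and PEA 2 against 153, 120 and 142 CPM in control 2, control 3 and PEA 3. Without xbp1 the sums of the sets overlap. The list's median log2 difference was -0.08, and 1 member did not overlap on the higher and 5 on the lower side, beside 12.08% and 12.97% of all genes.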
